A study of Capra hircus with 72 samples.

Results

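Skeletal muscle of goats transported for 30 min was compared with muscle of goats kept in pens, in the sequencing set that the deposited tables mark 24H. The members were chosen by the tag in the sample title and are 18 of the 72 libraries of the series: 9 libraries of 30 min transport, numbered 19 to 27, and 9 control libraries, numbered 1 to 9. The comparison is described over the 4125 genes that the authors' deposited table lists for it, 3207 of them with a gene symbol. Every listed gene had an unadjusted p under 0.05 in that table, so the table is a selection made on this contrast, and counts of higher and lower genes describe the selection.

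The goats were intact Spanish males (Capra hircus), 8 months old, raised on pasture with a grain supplement, and assigned at random to 30 min or 180 min in a livestock trailer or to a holding pen. All of them, controls included, had been without feed overnight and were slaughtered afterwards, and the title of the study ties the work to stress and meat quality. The design text speaks of 18 goats for each of 3 treatments over 2 days, and no label gives the day of a library, the muscle sampled or the meaning of 24H. Control library 9 carries a control title and group tag but a treatment field that names 180 minutes, so it was kept as a control and results that lean on it are also given without it.

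Handling and transport activate the sympathetic nerves and the pituitary and adrenal glands, which release adrenaline and cortisol. Cortisol binds the glucocorticoid receptor, and in skeletal muscle the receptor switches on genes that slow insulin signalling, protein synthesis and glucose oxidation and that favour protein breakdown. Adrenaline acts faster, through cyclic AMP, and mobilises the glycogen from which lactic acid forms after slaughter, so that both hormones bear on the acidity and tenderness of meat.

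The 30 min libraries held 13.8 to 19.4 M counts (median 16.2) and the control libraries 11.8 to 16.2 M (median 14.7), as implied by the deposited FPKM values, where M is a count of 1000000. Listed genes took 40.5 to 50.3% of the counts at 30 min and 42.6 to 69.4% in controls. Control library 7 stood apart with the highest of these shares, ahead of 55.6% in the next control. Of 12 markers of skeletal muscle fibres, 6 were listed (NEB, MYH2 and RYR1 higher, CKM, MB and TNNT1 lower), and together they had 81698 to 131036 CPM (median 108039) at 30 min, against 87486 to 150011 (median 123799) in controls, where CPM is counts per M counts of the library. RNA of skeletal muscle, the labelled tissue, was thus abundant in every library. No marker of B cells, red blood cells or fibroblasts was listed.

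The libraries of each group were not alike. At the listed genes, 30 min libraries 19, 20, 21 and 23 lay on the 30 min side of the control median for 97.3 to 98.1% of the genes, but 30 min library 22 for 65.5% and library 26 for 83.2%. Among controls, library 8 lay on the control side of the 30 min median for 57.0% of the genes and library 4 for 74.6%, whereas library 7 did so for 97.6%. These shares describe genes that were selected for the difference.

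The edgeR quasi-likelihood test, with Benjamini-Hochberg adjustment over the 12649 genes the authors had adjusted, passed 12 of the 4125 listed genes (0.291%) at an adjusted p under 0.05: 8 rose (0.194%) and 4 fell (0.097%). By the sign of the fitted difference, 2022 listed genes (49%) were higher and 2103 (51%) lower. The adjusted p was under 0.06 for 21 genes, between 0.06 and 0.07 for 664 more and under 0.1 for 2028. DESeq2 on the same counts passed 665 genes higher (16.1%) and 662 lower (16%), and 1528 genes (37%), 781 higher (18.9%) and 747 lower (18.1%), had an adjusted p under 0.05 in the authors' deposited table. The number of edgeR genes ran from 3 to 2170 when single libraries were left out, with 2170 without control library 8, 1596 without 30 min library 22, 882 without control library 4 and 466 without 30 min library 26. Without control library 9, whose labels conflict, FKBP5, LIPG and ACP5 passed. Of the 12 genes that passed edgeR, 11 also had an adjusted p under 0.05 in the authors' deposited table. In what follows only the 12 genes are said to have risen or fallen. For the rest the values are given with the number called, meaning an adjusted p under 0.05 in the authors' deposited table. A called share near the 37% of all listed genes is no result about a list.

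FKBP5 (ENSCHIG00000014746, chromosome 23, 39071133 to 39140144 as the deposited table lists it, without a named genome build), the co-chaperone that lowers the hormone affinity of the glucocorticoid receptor and is itself switched on by that receptor, rose most clearly. It ran from 1069 to 2474 normalized counts (median 1519.9) in the 30 min libraries, against 369.8 to 677 (median 612) in the controls. All 9 transported libraries lay above the highest control, so the groups did not overlap. FKBP5 had a log2 difference of 1.55 ± 0.17 (SE, edgeR adjusted p = 7.8e-05), and its level per length was 81.2 ± 25.6 FPKM at 30 min and 26.8 ± 5.48 FPKM in controls (SD, n = 9 each). It passed edgeR in all 18 fits that left out one library, with adjusted p from 3.6e-05 to 3.3e-04.

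LIPG (ENSCHIG00000015994, chromosome 24, 49368520 to 49422243) encodes endothelial lipase, which frees fatty acids from circulating lipoproteins. It ran from 95.2 to 619 normalized counts (median 306) in the 30 min libraries, against 41.0 to 180.0 (median 88.6) in the controls. A single transported library, 30 min library 26 at the low end, fell inside the control range, and the other 8 lay above every control. LIPG rose by 1.98 ± 0.31 on the log2 scale (SE, edgeR adjusted p = 0.0071) and passed in 18 of 18 fits without one library. PIK3R1 (ENSCHIG00000021158, chromosome 20, 11402302 to 11483313) encodes the regulatory subunit p85 alpha of phosphoinositide 3-kinase and is a glucocorticoid target in mouse muscle. It ran from 865 to 2792 normalized counts (median 1729) in the 30 min libraries, against 374 to 979 (median 821) in the controls. Only 30 min library 22 lay under the highest control, and control library 7 was the lowest of all. PIK3R1 rose, with a log2 difference of 1.13 ± 0.21 (SE, edgeR adjusted p = 0.038), and passed in 7 of 18 fits without one library.

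NCEH1 (ENSCHIG00000024248, chromosome 1, 94364487 to 94430626), a hydrolase of cholesteryl esters, ran from 43.01 to 121 normalized counts (median 92.9) in the 30 min libraries, against 9.45 to 61.1 (median 25.5) in the controls. It rose, with a log2 difference of 1.58 ± 0.30 (SE, edgeR adjusted p = 0.041), and 8 of 9 transported libraries lay above every control. SLC16A9 (ENSCHIG00000025891, chromosome 28, 30119712 to 30201534), a carnitine and monocarboxylate transporter named here after its values were seen because its mean is under 50 normalized counts, ran from 6.79 to 30.0 normalized counts (median 16.1) in the 30 min libraries, against 0.935 to 8.52 (median 4.03) in the controls. It rose, with a log2 difference of 1.92 ± 0.37 (SE, edgeR adjusted p = 0.049), and again 30 min library 22 was the one inside the control range. REV3L (ENSCHIG00000023002, chromosome 9, 26259783 to 26437892), the catalytic subunit of the translesion DNA polymerase zeta, ran from 750.1 to 1454 normalized counts (median 1106) in the 30 min libraries, against 408 to 884 (median 673) in the controls. It rose, with a log2 difference of 0.77 ± 0.15 (SE, edgeR adjusted p = 0.049), and 7 of 9 transported libraries lay above every control. NCEH1, SLC16A9 and REV3L passed in 6, 5 and 6 of 18 fits without one library.

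ACP5 (ENSCHIG00000014322, chromosome 7, 95771028 to 95777052), the tartrate-resistant acid phosphatase of macrophages and osteoclasts, was the one fallen gene with a symbol. It ran from 81.8 to 179 normalized counts (median 116) in the 30 min libraries, against 162 to 340.2 (median 278) in the controls. The 8 other libraries of the 30 min group lay under every control, while library 25 did not. ACP5 fell, with a log2 difference of -1.11 ± 0.17 (SE, edgeR adjusted p = 0.0071), and passed in 18 of 18 fits without one library. The other 5 genes that passed have no symbol in the table, among them ENSCHIG00000022414, which rose by 1.51 ± 0.30, and ENSCHIG00000013558, which fell with a log2 difference of -2.37 ± 0.43 at a low level (1.83 at 30 min and 10.1 normalized counts in controls). Only 3 of the 4125 genes (0.0727%) had groups without overlap: FKBP5, KLHDC8B and a gene without a symbol. KLHDC8B, a kelch-repeat protein gene, ran from 77.5 to 95.3 normalized counts (median 86.5) in the 30 min libraries, against 98.2 to 144 (median 117) in the controls, so every transported library was lower, with a log2 difference of -0.43 ± 0.12 (SE, edgeR adjusted p = 0.064).

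**Figure D1:**
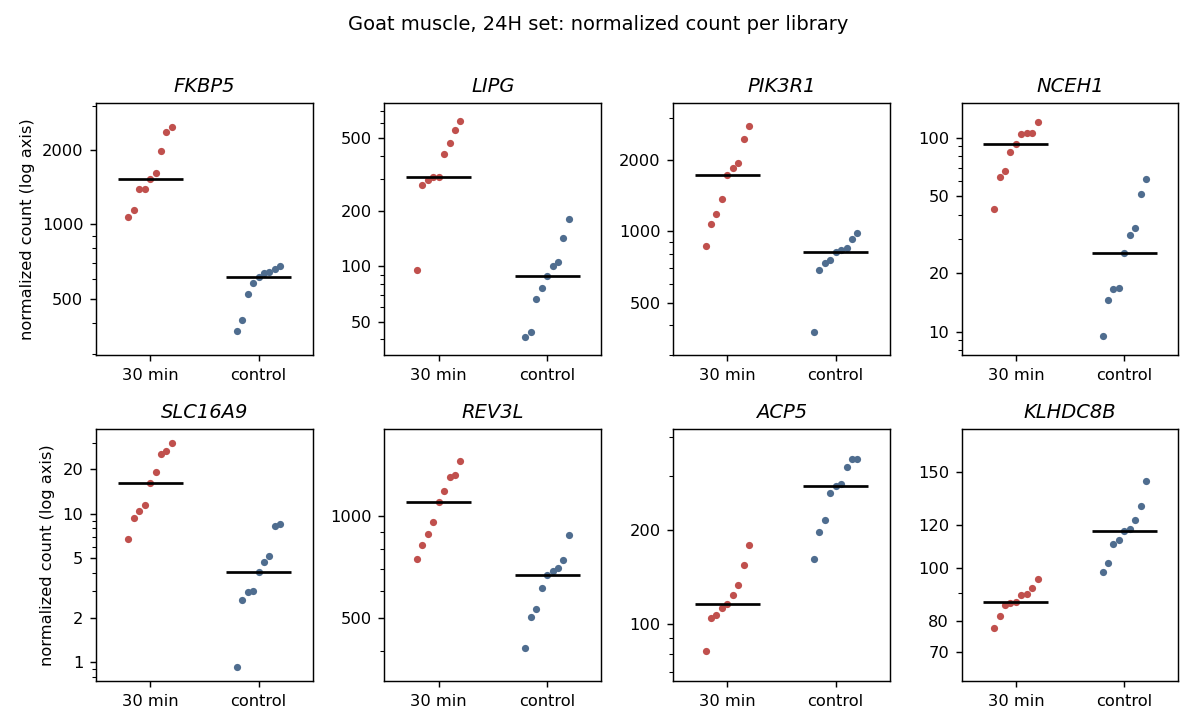
Normalized counts on log axes of the 7 genes with a symbol that passed the edgeR test and of KLHDC8B, one point per library (9 at 30 min, 9 controls) in order of value, with the median as a bar. FKBP5 and KLHDC8B show no overlap between the groups; in LIPG, PIK3R1, NCEH1, SLC16A9 and ACP5 a single transported library reaches into the control range.

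The glucocorticoid response list holds genes switched on by the receptor together with muscle genes regulated by it. It had 19 members in the table, 18 higher and 1 lower, of which 12 higher and 0 lower were called, with a median log2 difference of 0.88 against -0.22 over all listed genes. LIPG and PIK3R1 were put on this list with their rise in these data known. The counts and the median of the list, here and below, include them by that choice. Their passing edgeR is therefore no support for the list. The receptor itself, NR3C1, ran from 216 to 834 normalized counts (median 414) in the 30 min libraries, against 123 to 433 (median 192) in the controls. All 9 transported libraries lay above the control median and 4 above every control, for a log2 difference of 0.92 ± 0.26 (SE, edgeR adjusted p = 0.064). The transcription factors KLF9, a repressor induced by the receptor, and ZBTB16, a classical receptor target, had log2 differences of 1.13 ± 0.26 and 1.10 ± 0.24. TSC22D3, the glucocorticoid-induced leucine zipper, was higher by 0.52 ± 0.16 and SGK1, a kinase induced by the hormone in many cells, was the lower member at -0.68 ± 0.25. None of these 5 passed edgeR (adjusted p 0.06 to 0.088), and of the 19 members 3 did (FKBP5, LIPG and PIK3R1). DESeq2 passed 12 of the higher members, 11 without control library 7 and 8 without control library 9. The summed level of the list was 2176 to 11424 CPM (median 4299.8) at 30 min. In controls it was 1593 to 5940.3 (median 2318), and control library 7 was the highest. A sum gives most weight to abundant members, and single members of the list differed in this library. NR3C1 (123), KLF9 (83.9) and PIK3R1 (374) had their lowest control value there, in normalized counts, and SGK1 its highest (965).

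Of the circadian clock genes 10 were listed, 9 higher and 1 lower, with a median log2 difference of 0.70. Of the 10, 4 were called, all higher, against 37% of all listed genes. The output factors HLF and TEF, which carry the rhythm to metabolic genes, were higher by 1.03 ± 0.26 and 0.71 ± 0.25, the repressor BHLHE41 by 1.29 ± 0.34, the receptor RORA by 0.71 ± 0.24 and the core activator CLOCK by 0.69 ± 0.26. HLF ran from 47.5 to 251 normalized counts (median 161) in the 30 min libraries, against 34.3 to 116 (median 72.7) in the controls. The 7 highest transported libraries lay above every control, and library 22 lay lowest. PER2, a core repressor that the glucocorticoid receptor also induces, had a log2 difference of 0.67 ± 0.29 (SE, edgeR adjusted p = 0.13), and NPAS2, the partner that can stand in for CLOCK, was lower at -0.65 ± 0.28. No clock gene passed edgeR (adjusted p 0.064 to 0.13 for the 7 named here), and DESeq2 passed 4 of the higher members, 2 without control library 7 and 2 without control library 9. The hour at which each goat was sampled is not given in the labels.

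Genes of insulin and phosphoinositide 3-kinase signalling were listed 14 times and all 14 were higher, 10 of them called, with a median log2 difference of 0.58. Besides PIK3R1 they included the catalytic subunit PIK3CA (0.71 ± 0.21), the kinases PDPK1 (0.91 ± 0.30) and AKT2 (0.44 ± 0.15), and TBC1D4 (0.80 ± 0.22), which holds glucose transporters inside the fibre until AKT acts on it. FOXO3 and FOXO1, the transcription factors that AKT keeps out of the nucleus and that drive atrophy genes, were higher by 1.29 ± 0.34 and 0.62 ± 0.19. FOXO3 ran from 124 to 637 normalized counts (median 295) in the 30 min libraries, against 48.4 to 288 (median 113) in the controls. All 9 transported libraries exceeded the control median and 5 exceeded every control. PIK3R1 was the only one of the 14 to pass edgeR, and DESeq2 passed 9 of them, 3 without control library 7 and 4 without control library 9. In control library 7, PIK3R1, AKT2 and TBC1D4 were each at their lowest value among controls.

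Regulators of mTOR and AMPK, the kinases that promote protein synthesis and sense energy shortage, were 13 higher and 3 lower among 16 listed, 9 higher and 1 lower called, with a median of 0.63. The AMPK catalytic subunits PRKAA1 and PRKAA2 were higher by 0.71 ± 0.25 and 1.02 ± 0.36, MTOR by 0.53 ± 0.18, its inhibitor DEPTOR by 0.81 ± 0.22, the stress-inducible sestrin SESN1 by 0.69 ± 0.21 and the translation repressor EIF4EBP2 by 0.95 ± 0.31. The small lysosomal anchor LAMTOR2 was lower at -0.48 ± 0.15. None of them passed edgeR (adjusted p 0.064 to 0.085), and DESeq2 passed 6 of the higher members, 2 without control library 7 and 1 without control library 9.

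Members of the transforming growth factor family went both ways. Of 15 listed members 10 were higher and 5 lower, with 5 called in each direction and a median of 0.47. MSTN, which encodes myostatin, the secreted brake on muscle growth, ran from 57.6 to 627 normalized counts (median 256) in the 30 min libraries, against 67.2 to 177 (median 101) in the controls. In 8 transported libraries it was above the control median, in 6 above every control, while 30 min library 26 was lower than any control, for a log2 difference of 1.34 ± 0.32 (SE, edgeR adjusted p = 0.062). The type I receptor TGFBR1 was higher by 1.08 ± 0.37, the bone morphogenetic protein receptor BMPR1A by 0.86 ± 0.29, the signal carrier SMAD5 by 0.71 ± 0.20 and the repressor SKI by 0.81 ± 0.18. The 5 lower members were 3 ligands of the BMP branch and 2 genes switched on by it, among them BMP4 at -0.85 ± 0.25, ID1 at -0.88 ± 0.26 and ID3 at -0.79 ± 0.23. None of these 8 passed edgeR (adjusted p 0.06 to 0.082). DESeq2 passed 5 higher and 5 lower members, 2 and 0 without control library 7, and 2 and 1 without control library 9.

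Genes that carry the adrenaline signal through cyclic AMP were 10 higher and 3 lower among 13 listed, 4 higher and 1 lower called, with a median of 0.43. The regulatory and catalytic subunits of protein kinase A, PRKAR2A and PRKACA, were higher by 1.10 ± 0.31 and 0.36 ± 0.12, and the anchoring protein AKAP13 by 0.86 ± 0.26. The adenylate cyclase ADCY4 was lower at -0.52 ± 0.17. Nuclear receptors and their coactivators were 13 higher and 4 lower among 17 listed, 9 higher and 2 lower called, with a median of 0.65: besides NR3C1 the corepressor NRIP1, which restrains oxidative metabolism in mouse muscle, by 1.20 ± 0.32 and the receptor NR2C2 by 0.65 ± 0.18. Of the hypoxia response 9 of 10 listed genes were higher, 4 called, with the oxygen sensor EGLN1 by 0.64 ± 0.20 and BNIP3, which marks mitochondria for removal, by 0.34 ± 0.12. None of these 8 genes passed edgeR (adjusted p 0.064 to 0.082). DESeq2 passed 4, 8 and 3 of the higher genes of the 3 lists, and 1, 2 and 2 without control library 7. The called shares of the cyclic AMP and hypoxia lists lay near the 37% of all listed genes.

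Immediate early genes, which cells transcribe within minutes of a stimulus, were mostly lower: 10 of 11 listed, with a median of -0.78. Of the 11, 2 lower and 1 higher were called, against 37% of all listed genes. FOSB ran from 17.1 to 200.0 normalized counts (median 42.7) in the 30 min libraries, against 10.6 to 1219 (median 148) in the controls. Control libraries 1, 2 and 7 were the highest, control libraries 5 and 8 the lowest, and every transported library lay inside the control range. FOSB had a log2 difference of -2.21 ± 0.70 (SE, edgeR adjusted p = 0.073), EGR1 -1.18 ± 0.49, BTG2 -1.44 ± 0.59 and IER2 -0.90 ± 0.32. For BTG2 the medians went the other way, 144 normalized counts at 30 min and 110.4 in controls, and control libraries 1 and 2 were far above the rest, up to 1317. FOSL2, the late-acting member of the FOS family, was the higher one at 1.27 ± 0.38, with 48.2 to 527 normalized counts (median 91.7) in the 30 min libraries and 39.7 to 88.6 (median 57.8) in the controls. None passed edgeR (adjusted p 0.066 to 0.12), and of the 2 lower genes that DESeq2 passed, 0 passed without control library 7 and 0 without control library 9.

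The list of cytokines, chemokines and their receptors held 11 higher and 13 lower members, 6 higher and 0 lower called, with a median of -0.37. The receptor and signalling genes named next were all higher and do not stand for the list, since none of its 13 lower members is named. The leukaemia inhibitory factor receptor LIFR ran from 60.9 to 315 normalized counts (median 148) in the 30 min libraries, against 30.7 to 100.08 (median 44.9) in the controls, and 5 transported libraries lay above every control, for a log2 difference of 1.29 ± 0.30 (SE, edgeR adjusted p = 0.062). The shared receptor subunit IL6ST (gp130) was higher by 0.68 ± 0.15, the kinase JAK1 by 0.68 ± 0.21, the transcription factor STAT3 by 0.59 ± 0.16 and the feedback inhibitor SOCS3 by 0.87 ± 0.36.  None of these 5 genes passed edgeR (adjusted p 0.06 to 0.12). All 21 listed interferon response genes, by contrast, were lower, 16 of them called, with a median of -0.67. Their summed level was 110.2 to 185 CPM (median 134) at 30 min, against 138 to 299 (median 215) in controls, and the ranges overlapped. PSMB9 and PSMB8, the inducible catalytic subunits of the immunoproteasome, were lower at -1.16 ± 0.25 and -0.90 ± 0.21, the antigen peptide transporter TAP1 at -0.57 ± 0.19, IFI35 at -0.68 ± 0.17 and IRF3, a transcription factor that starts interferon production, at -0.61 ± 0.16. These 5 had edgeR adjusted p from 0.06 to 0.079. DESeq2 passed 15 of the 21, 4 without control library 7 and 6 without control library 9.

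**Figure D2:**
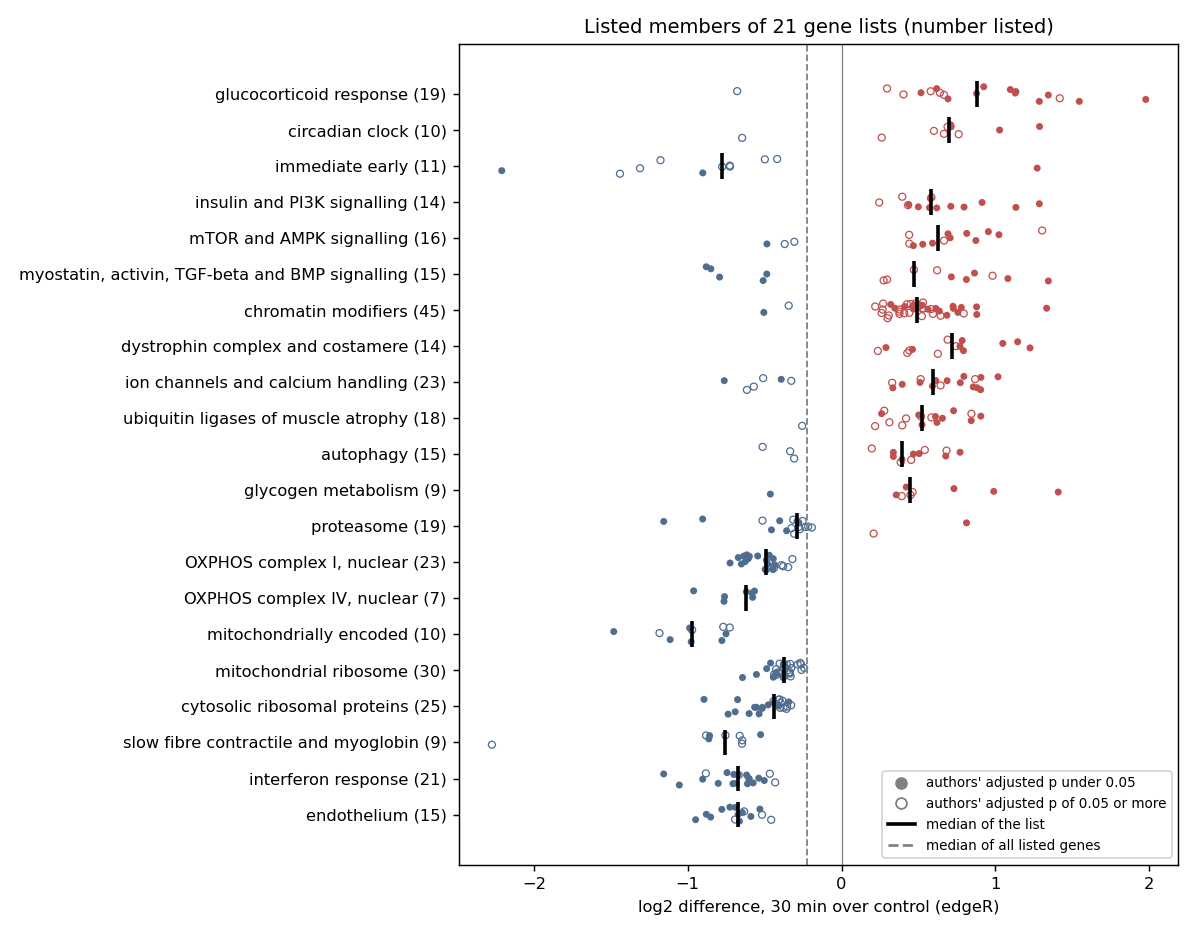
Log2 differences, 30 min over control, of the listed members of 21 gene lists, one point per gene, filled where the authors' adjusted p was under 0.05, with the list median as a black bar and the median of all 4125 listed genes (-0.22) as a dashed line. Members of the insulin and dystrophin lists all lie right of 0; those of the oxidative phosphorylation, ribosomal, interferon and endothelium lists all lie left of 0.

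In the muscle fibre itself, genes of the dystrophin complex and the costamere, which tie the contractile apparatus to the cell membrane and the matrix, were all higher: 14 of 14 listed, 8 called, with a median of 0.72. NOS1, the neuronal nitric oxide synthase held at the membrane by this complex, was higher by 1.23 ± 0.34, sarcospan (SSPN) by 1.14 ± 0.26, the laminin receptor DAG1 by 0.79 ± 0.23, beta-sarcoglycan (SGCB) by 0.77 ± 0.24, the adaptor ANK2 by 1.05 ± 0.33 and vinculin (VCL) by 0.78 ± 0.23. SSPN ran from 126 to 486 normalized counts (median 287) in the 30 min libraries, against 65.0 to 226 (median 133) in the controls. The 7 highest transported libraries lay above every control, and libraries 22 and 26 were the other two. The summed level of the list was 1555 to 3615 CPM (median 2326) at 30 min, against 976 to 2372 (median 1504) in controls. None passed edgeR (adjusted p 0.061 to 0.073 for those named), and DESeq2 passed 7 of them, 2 without control library 7 and 2 without control library 9.

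Ion channels and calcium handling genes were 17 higher and 6 lower among 23 listed, 13 higher and 2 lower called, with a median of 0.59. The calcium channel subunit CACNA2D1 was higher by 1.02 ± 0.25, the catalytic subunit of calcineurin PPP3CA by 0.88 ± 0.22, its target NFATC3 by 0.91 ± 0.26, the calcium-dependent kinase CAMK2D by 0.90 ± 0.23 and the potassium channel KCNJ2 by 0.80 ± 0.27. RYR1, the calcium release channel whose mutations cause malignant hyperthermia in several species, was higher by 0.39 ± 0.16 (edgeR adjusted p = 0.11). It ran from 56698 to 146107 normalized counts (median 84706) in the 30 min libraries, against 60610.0 to 80861 (median 71969.9) in the controls. Library 26 was below every control and 7 transported libraries were above every control. DESeq2 passed 11 of the higher members, 3 without control library 7 and 4 without control library 9.

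All 9 listed slow fibre genes were lower, with a median of -0.75, and 3 were called, against 37% of all listed genes. Troponin T (TNNT1) was at -0.86 ± 0.31, troponin C (TNNC1) at -0.86 ± 0.31, myoglobin (MB) at -0.53 ± 0.18 and the light chain MYL3 at -2.27 ± 0.96. MYL3 was the most scattered, with 38.2 to 9713 normalized counts (median 608) in the 30 min libraries, against 287 to 26894 (median 3105) in the controls. Of the 3 listed fast fibre genes 1 was higher and 2 lower, 1 lower called, with a median of -0.39. The myosin MYH2 was higher by 0.44 ± 0.23 and the troponin I gene TNNI2 lower at -0.46 ± 0.17. MYH8, the myosin of newborn and regenerating muscle, ran from 231 to 2861 normalized counts (median 1343) in the 30 min libraries, against 207 to 773 (median 403) in the controls. The 6 highest transported libraries lay above every control and library 22 lay above 1 control, for a log2 difference of 1.41 ± 0.36 (SE, edgeR adjusted p = 0.064). Nebulin (NEB), the ruler of the thin filament, was higher by 0.67 ± 0.22. The summed slow fibre level was 19826 to 53274 CPM (median 34346) at 30 min, against 30258 to 90561 (median 53922) in controls, highest in control library 7. None of these genes passed edgeR, and DESeq2 passed 3 of the 9, 0 without control library 7 and 0 without control library 9.

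Regulators of muscle differentiation were 7 higher and 4 lower among 11 listed, 4 higher and 2 lower called. MEF2A and TEAD1, transcription factors of muscle genes, were higher by 1.03 ± 0.29 and 0.84 ± 0.24 and CHRNA1, the acetylcholine receptor subunit at the nerve contact, by 0.82 ± 0.22. VGLL2, a muscle cofactor of the TEAD proteins, was lower at -0.77 ± 0.20. The 4 genes had edgeR adjusted p from 0.064 each.

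The ubiquitin system marks proteins for breakdown by the proteasome. Ligases linked to muscle atrophy were 17 higher and 1 lower among 18 listed, 9 higher called, with a median of 0.52: CUL5 by 0.91 ± 0.22 and ITCH by 0.73 ± 0.21. TRIM63 and FBXO32, the best known atrophy ligases, were not in the table. By the domain label in the deposited table, all 14 HECT ligases were higher (7 called, median 0.49). All 20 genes labelled UCH, a domain of deubiquitinases, were higher too (11 called, median 0.59). DESeq2 passed 6 HECT and 10 UCH genes, 1 and 4 without control library 7, and 1 and 4 without control library 9. The 19 genes with a ubiquitin domain were 7 higher and 12 lower (3 and 9 called, median -0.45). USP13 was higher by 1.05 ± 0.39, USP37 by 1.03 ± 0.36 and USP2, a deubiquitinase induced by fasting and glucocorticoids in mouse liver, by 0.62 ± 0.14. USP2 ran from 3105 to 6024 normalized counts (median 3818) in the 30 min libraries, against 2104 to 3447 (median 2581) in the controls. In 7 transported libraries it lay above every control. DESeq2 passed 6 of the higher atrophy ligases, 2 without control library 7 and 2 without control library 9.

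The proteasome list was 2 higher and 17 lower among 19 listed, with a median of -0.29. Of the 19, 1 higher and 7 lower were called, against 37% of all listed genes. The summed level of the list was 2464 to 2957 CPM (median 2721) at 30 min, against 2758 to 3813 (median 3120.5) in controls. All 13 genes with a proteasome domain were lower (7 called). PSMA6 of the core ring was lower at -0.28 ± 0.10, and PSMB9 and PSMB8 lay furthest down. Of the 2 higher members PSME4, an activator cap, was higher by 0.81 ± 0.24. DESeq2 passed 7 of the lower members, 3 without control library 7 and 4 without control library 9.

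Calpains, the calcium-dependent proteases that tenderise meat, were represented by 2 genes. CAPN3, the muscle-specific calpain, ran from 6707 to 12067 normalized counts (median 9493) in the 30 min libraries, against 4182 to 9918 (median 6743) in the controls, and with 2 transported libraries above every control it had a log2 difference of 0.35 ± 0.16 (SE, edgeR adjusted p = 0.14). CAPN5 was lower at -0.71 ± 0.20. CAPN1, CAPN2 and their inhibitor CAST were not in the table. In the same list of 8, the protease inhibitors CST6 and TIMP1 were lower at -0.85 ± 0.24 and -0.87 ± 0.26. Autophagy genes were 12 higher and 3 lower among 15 listed, 7 higher called, with the processing protease ATG4A higher by 0.68 ± 0.16, the cargo receptor NBR1 by 0.50 ± 0.15 and the membrane marker MAP1LC3A lower at -0.51 ± 0.21. None of these genes passed edgeR (adjusted p 0.062 to 0.14).

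Glycogen genes were 8 higher and 1 lower among 9 listed, 5 higher and 1 lower called, with a median of 0.45. PGM2L1, which makes glucose bisphosphate, ran from 21.5 to 273 normalized counts (median 145) in the 30 min libraries, against 19.8 to 102 (median 59.5) in the controls. The 6 highest transported libraries lay above every control and libraries 22, 24 and 26 lay inside the control range, for a log2 difference of 1.41 ± 0.40 (SE, edgeR adjusted p = 0.064). Glycogen synthase GYS1 was higher by 0.45 ± 0.19 and PPP1R3A, the muscle subunit that brings protein phosphatase to glycogen, by 0.36 ± 0.13. PHKG2, a catalytic subunit of phosphorylase kinase, was lower at -0.46 ± 0.16, and the muscle phosphorylase PYGM was not listed. Of the citric acid cycle and pyruvate list 4 of 13 listed genes were higher and 9 lower, with a median of -0.38. In this list 1 higher and 3 lower were called, against 37% of all listed genes. Its members PDK4 and PDK1, kinases that shut pyruvate out of the mitochondrion's oxidation, were higher by 1.42 ± 0.42 and 0.37 ± 0.13. PDK4 ran from 12242 to 117511 normalized counts (median 31421) in the 30 min libraries, against 5821 to 50745 (median 14163) in the controls, and control library 7 was the highest control. Of glycolysis and glucose uptake 5 of 8 listed genes were higher and 3 lower, with a median of 0.71. Of the 8, 2 higher and 1 lower were called, against 37% of all listed genes. The summed level was 5661 to 7929 CPM (median 6825) at 30 min, against 4081 to 9028 (median 7749.7) in controls. The regulators PFKFB3 and PFKFB4, which set the rate of glycolysis, were higher by 1.39 ± 0.66 and 0.77 ± 0.20. None of these genes passed edgeR (adjusted p 0.064 to 0.17), and DESeq2 passed 5 of the higher glycogen genes, 3 without control library 7 and 3 without control library 9.

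Lipid genes went both ways. Of 20 genes of fatty acid uptake, storage and oxidation, LIPG among them, 7 were higher and 13 lower, 4 higher and 5 lower called. Lipoprotein lipase (LPL), which feeds fatty acids to the fibre, was higher by 0.67 ± 0.23 and the monoglyceride lipase MGLL by 0.41 ± 0.14. AGPAT2, an enzyme of triglyceride assembly, was lower at -0.80 ± 0.24, the hormone-sensitive lipase LIPE at -0.64 ± 0.25 and CPT1C at -1.34 ± 0.47. The level of CPT1C was low, 4.70 to 22.2 normalized counts at 30 min and 1.87 to 64.8 in controls. The edgeR adjusted p of LPL, MGLL, AGPAT2, LIPE and CPT1C ran from 0.067 to 0.11.

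The respiratory chain, by which mitochondria oxidise fuel and drive ATP synthase, was lower in all of its listed genes. All 39 listed nuclear genes were lower and 29 were called, with a median of -0.52: 23 of complex I, 6 of complexes II and III, 7 of complex IV and 3 of complex V. COX5B of complex IV ran from 5823 to 14530.4 normalized counts (median 9924) in the 30 min libraries, against 10319.9 to 25947 (median 17304) in the controls. All 9 transported libraries lay under the control median and 5 under every control, for a log2 difference of -0.76 ± 0.19 (SE, edgeR adjusted p = 0.064). COX7A1, the muscle form of a complex IV subunit, was lower at -0.96 ± 0.27, NDUFA2 and NDUFA13 of complex I at -0.72 ± 0.18 and -0.67 ± 0.17, UQCRQ of complex III at -0.82 ± 0.22 and ATP5IF1, the inhibitor of ATP synthase, at -0.75 ± 0.19. None passed edgeR (adjusted p 0.064 each). The summed level of the 39 was 11422 to 19826 CPM (median 16002) at 30 min, against 15065 to 31597 (median 22344) in controls, with control library 7 highest. DESeq2 passed 28 of the 39, 8 without control library 7 and 14 without control library 9. The median without control library 7 was -0.44.

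The 10 listed protein genes of the mitochondrial genome were all lower, 6 called, with a median of -0.97 and -0.65 without control library 7. ND1 of complex I ran from 1743 to 10771 normalized counts (median 4736) in the 30 min libraries, against 6472 to 43169 (median 13082) in the controls. The 6 lowest transported libraries lay under every control, and control library 7 was more than 2 times the next control, for a log2 difference of -1.48 ± 0.36 (SE, edgeR adjusted p = 0.062). ND5 was lower at -0.99 ± 0.26 and COX1 at -1.18 ± 0.42. Their summed level was 4186 to 16817 CPM (median 6569) at 30 min, against 7188 to 31088 (median 13302) in controls. DESeq2 passed 6 of the 10, 3 without control library 7 and 3 without control library 9. Proteins of the mitochondrial ribosome were lower in 30 of 30 listed, with a median of -0.38: MRPS25 at -0.64 ± 0.18 and MRPL11 at -0.55 ± 0.15. Of the 30, 9 were called, against 37% of all listed genes. Cytosolic ribosomal proteins were lower in 25 of 25, 15 called, with a median of -0.44. RPS29 ran from 5030.2 to 12842 normalized counts (median 8019) in the 30 min libraries, against 9871 to 30389 (median 14411) in the controls, with control library 7 again the highest, and was lower at -0.89 ± 0.20, and RPLP2 at -0.69 ± 0.18. DESeq2 passed 8 of the mitochondrial set, 0 without control library 7 and 2 without control library 9. DESeq2 passed 13 of the cytosolic set, 3 without control library 7 and 4 without control library 9. Copies of ribosomal and mitochondrial genes elsewhere in the genome can share reads with them, and the sources used here do not say how the authors counted such reads.

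**Figure D3:**
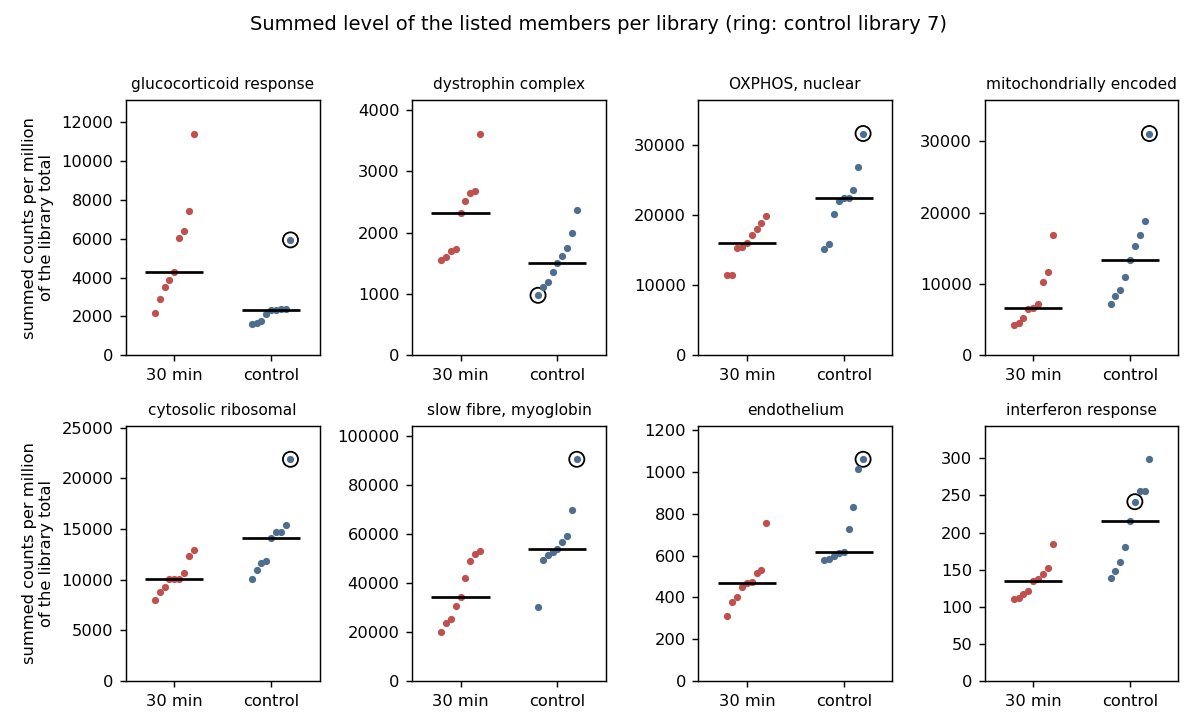
Summed level of the listed members of 8 gene lists in each library, in CPM, with the median as a bar and control library 7 ringed. The ring is at the top of the controls for oxidative phosphorylation, mitochondrially encoded, ribosomal, slow fibre, endothelium and glucocorticoid genes. It is at the bottom for the dystrophin complex. A sum gives most weight to abundant members, so it need not follow most genes of a list.

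Direction went with gene length. In the quintile of shortest listed genes (deposited length 63 to 720 bases) 17.8% were higher at 30 min, with a median log2 difference of -0.45. In the next quintile 44.3% were higher, and in the 3 longer quintiles 59.8 to 62.7%, with medians from 0.31 to 0.37. The nuclear oxidative phosphorylation genes had a median length of 531 bases, the cytosolic ribosomal proteins 441 and the mitochondrial ribosome 654, against 4677 for chromatin modifiers, 3418 for insulin genes and 1897 over all listed genes. Small nucleolar RNAs, which guide the modification of ribosomal RNA, were 2 higher and 15 lower among 17 listed (median -1.47, median length 104 bases). Lists with a negative median also held long genes, such as endothelium (median length 3377 bases) and calpains, cathepsins, caspases and inhibitors (2788 bases, median log2 difference -0.54). No measure of RNA integrity is in the labels, and the part of gene length in these differences was not tested.

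**Figure D4:**
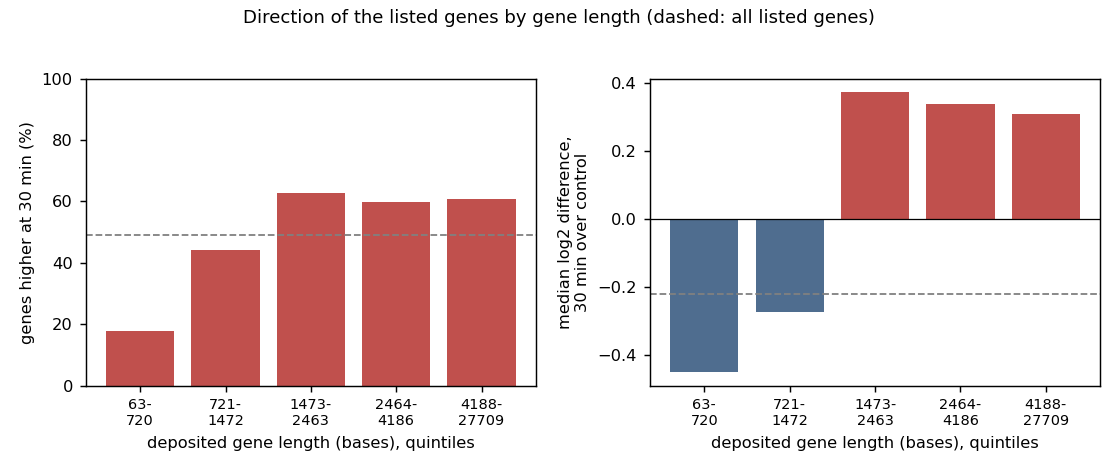
Listed genes in quintiles of the deposited gene length in bases: share of genes higher at 30 min (left, percent) and median log2 difference, 30 min over control (right), with dashed lines for all listed genes. The quintile of shortest genes is mostly lower and the 3 longer quintiles mostly higher at 30 min.

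Chromatin modifiers were 43 higher and 2 lower among 45 listed, 19 higher and 1 lower called, with a median of 0.49: the methyltransferases SETD7 by 1.33 ± 0.35 and KMT2A by 0.79 ± 0.32, the demethylase KDM3B by 0.72 ± 0.18 and the acetyltransferase EP300 by 0.56 ± 0.17. The deacetylase HDAC7, known from blood vessels, was lower at -0.50 ± 0.13. By the deposited domain label all 13 bromodomain genes (8 called), all 14 SNF2 remodellers (6 called) and all 11 JmjC demethylases (4 called) were higher, as were 22 of 24 BTB genes. Of all listed genes 37% were called. DESeq2 passed 6, 6 and 4 of the bromodomain, SNF2 and JmjC genes. Without control library 7 it passed 1, 1 and 2 of them, and without control library 9 also 1, 1 and 2. Homeobox genes were 9 higher and 17 lower among 26 (median -0.60) and HMG box genes 6 and 8 among 14 (median -0.34). Splicing factors were 12 higher and 12 lower among 24 listed, 5 and 4 called, with a median of -0.03, or 0.02 when scaled to library totals. Of 38 listed genes of polymerase II, elongation and Mediator 24 were higher and 14 lower, 7 and 6 called. These called counts lie near the shares over all listed genes, 18.9% higher and 18.1% lower. The elongation factors ELL2 and AFF1 were higher by 1.49 ± 0.35 and 1.30 ± 0.28, the Mediator subunits MED13 and MED1 by 0.77 ± 0.26 and 0.66 ± 0.20 and the large polymerase subunit POLR2B by 0.33 ± 0.12. The small polymerase subunits POLR2I, POLR2L and POLR2F were lower at -0.56 ± 0.14, -0.62 ± 0.17 and -0.51 ± 0.15. None of these genes passed edgeR, and DESeq2 passed 17 of the higher chromatin modifiers, 2 without control library 7 and 5 without control library 9.

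Markers of blood vessel lining were lower. Of 27 endothelium markers 15 were listed, all lower and 11 called, with a median of -0.67. ROBO4, a guidance receptor that steadies vessels, ran from 170.1 to 562 normalized counts (median 380.0) in the 30 min libraries, against 461 to 1296 (median 585) in the controls. The 7 lowest transported libraries lay under every control, for a log2 difference of -0.95 ± 0.23 (SE, edgeR adjusted p = 0.062). TIE1 was lower at -0.85 ± 0.23, the secreted factor EGFL7 at -0.88 ± 0.22, CLEC14A at -0.78 ± 0.17, the growth factor receptor KDR at -0.73 ± 0.22 and von Willebrand factor (VWF) at -0.53 ± 0.18. The summed level of the markers was 309.8 to 754 CPM (median 469.6) at 30 min, against 577 to 1060.3 (median 616) in controls, with control library 7 highest, and DESeq2 passed 11 of them, 3 without control library 7 and 3 without control library 9. Fewer endothelial cells and less of these RNAs per cell cannot be told apart in whole tissue. NOTCH3, a pericyte and smooth muscle marker, was lower at -0.65 ± 0.19, with 3 of 15 markers of those cells listed and all 3 lower. CD68 had few counts, 8.07 to 26.1 normalized counts at 30 min and 10.6 to 42.3 in controls. Of 19 macrophage and monocyte markers 4 were listed, CD163 higher by 0.76 ± 0.34 and CD68 lower at -0.87 ± 0.30. Their summed level was 18.2 to 46.0 CPM (median 32.3) at 30 min, against 21.6 to 99.7 (median 37.8) in controls, and their part in the fall of ACP5 was not tested. None of the markers passed edgeR.

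Genes of the p53 pathway, DNA damage and growth arrest were 9 higher and 3 lower among 12 listed, with a median of 0.42. Of the 12, 3 higher and 1 lower were called, against 37% of all listed genes. Heat shock proteins and co-chaperones were 3 higher and 5 lower among 8 listed, 1 and 2 called, a share near that of all listed genes. HSPA12A was higher by 0.69 ± 0.21 and the small heat shock protein CRYAB lower at -0.53 ± 0.26. Genes of the unfolded protein response were 7 higher and 6 lower among 13 listed, with the membrane channel DERL1 higher by 0.57 ± 0.16 and the death-promoting factor DDIT3 lower at -0.65 ± 0.19. The antioxidant enzyme GPX1 was lower at -0.66 ± 0.21. Large differences outside the lists were PPTC7, a mitochondrial phosphatase, higher by 1.52 ± 0.34, ZYG11B by 1.64 ± 0.42 and the insulin-regulated aminopeptidase LNPEP by 1.44 ± 0.34, against STAP2 at -1.42 ± 0.29, midkine (MDK) at -1.42 ± 0.41 and the homeobox gene HLX at -1.14 ± 0.30. PPTC7 ran from 145 to 1196 normalized counts (median 513) in the 30 min libraries, against 56.7 to 345 (median 227) in the controls, and library 22 was the one transported library inside the control range. Of these genes STAP2 came closest to passing edgeR, with an adjusted p of 0.053.

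The second muscle set, marked 6D, has the same groups, and its labels carry the same goat numbers, so its libraries may come from the same goats. Its 30 min table listed 1252 genes, and 647 genes stood in both tables, which is 15.7% of the 24H table and 51.7% of the 6D table. In the authors' deposited table of the 6D set 3 genes (0.24%) were called, against 1528 in the 24H set. FKBP5 in the 6D set had 697 ± 278 at 30 min and 232 ± 92.2 normalized counts in controls (SD, n = 9 each), and LIPG had 246 ± 173 at 30 min and 57.0 ± 39.1 normalized counts in controls (SD, n = 9 each). In the authors' deposited tables the log2 fold change was 1.55 in the 24H set and 1.59 in the 6D set for FKBP5, 1.98 and 2.11 for LIPG, 1.13 and 0.73 for PIK3R1, 1.34 and 1.26 for MSTN, and -1.11 and -0.77 for ACP5. The difference of the transport effect, 24H minus 6D, was tested with limma on the 647 genes, with no block for the goat number. The SE and p-values thus treat the sets as independent. The 647 genes had been selected for an unadjusted p under 0.05 in both tables, so genes with an effect in one set alone were left out beforehand. A count near 0 says little about how far the sets differ. The difference passed for 0 of the 647 genes (0%), with 2 at an unadjusted p under 0.05. It was -0.05 ± 0.32 (SE, adjusted p = 1) for FKBP5 and -0.03 ± 0.59 (adjusted p = 1) for LIPG. The 6 nuclear oxidative phosphorylation genes named above were not in the 6D table.

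The 180 min table of the 24H set uses the same 9 control libraries, so the values of each comparison and the direct contrast are given. In the authors' deposited tables FKBP5 had a log2 fold change of 1.55 at 30 min and 2.50 at 180 min, LIPG 1.98 and 1.90, and REV3L 0.77 and 1.05. The 30 min libraries were then set directly against the 9 libraries of 180 min on raw counts for the 636 genes listed in both tables, with adjustment over these 636 alone. All of them had been selected for a difference from the shared controls at both times, so the count describes selected genes. Of these 34 (5.35%) passed edgeR, 16 higher and 18 lower at 30 min, and 64 had an unadjusted p under 0.05. For FKBP5 the log2 difference, 30 min over 180 min, was -0.85 ± 0.34 (edgeR adjusted p = 0.26), and for LIPG 0.20 ± 0.32 (adjusted p = 0.97).

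SYNE2, which anchors the nucleus to the cytoskeleton, averaged 73.6 ± 10.4 CPM at 30 min, 41.2 ± 10.1 at 180 min and 59.9 ± 9.82 in controls (SD, n = 9 each), a difference of 30 min over 180 min of 0.84 ± 0.13 (SE, edgeR adjusted p = 5.1e-04). LRIG1, a brake on growth factor receptors, averaged 57.9 ± 20.99 CPM at 30 min, 25.04 ± 12.95 at 180 min and 36.8 ± 11.02 in controls, a difference of 1.21 ± 0.28 (SE, edgeR adjusted p = 0.0059), and PARP1, the DNA break sensor, 100.05 ± 12.7 CPM at 30 min, 70.2 ± 11.5 at 180 min and 84.4 ± 9.52 in controls, a difference of 0.51 ± 0.11 (SE, edgeR adjusted p = 0.0049). These 3 genes were listed as higher at 30 min and lower at 180 min against the same controls, so a difference between the 2 transported groups follows from how they were selected and is no separate finding. BAG2, a co-chaperone, averaged 116 ± 31.05 CPM at 30 min, 219.7 ± 69.8 at 180 min and 76.9 ± 28.0 in controls, a difference of -0.92 ± 0.21 (SE, edgeR adjusted p = 0.0059), and the secreted kinase PKDCC 189 ± 44.6 CPM at 30 min, 351 ± 154 at 180 min and 135 ± 32.2 in controls, a difference of -0.89 ± 0.21 (SE, edgeR adjusted p = 0.0069). In BAG2 and PKDCC both transported groups averaged above the controls, and the 180 min group more so.

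**Figure D5:**
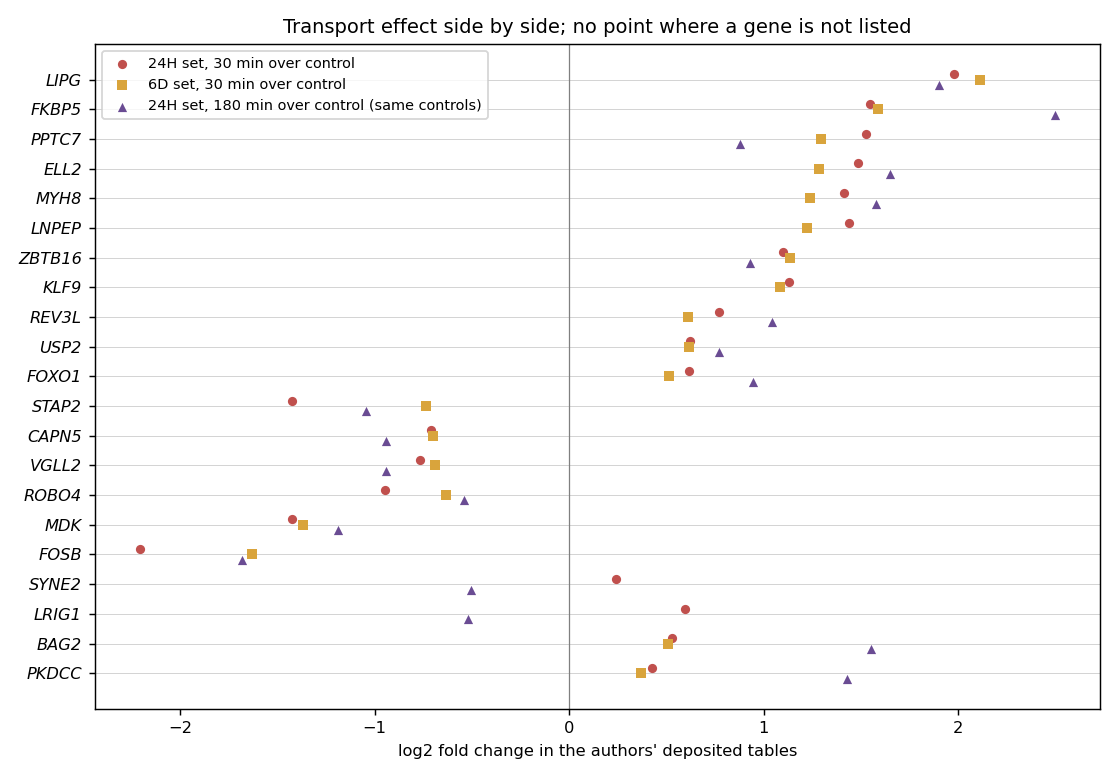
Log2 fold changes of 21 named genes in the authors' deposited tables: 30 min over control in the 24H set (circles), 30 min over control in the 6D set (squares) and 180 min over control in the 24H set (triangles), with no point where a table does not list the gene. FKBP5 lies at 1.55, 1.59 and 2.50, and SYNE2 and LRIG1 lie on opposite sides of 0 at 30 and 180 min.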

How the data were processed

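RNA-seq of muscle was compared between 9 libraries of 30 min transport and 9 controls. Per the labels, a column kit isolated the RNA and libraries were made with NEBNext Ultra. For the aligner, counter, strand, genome build and annotation no statement is given in the sources used here. Per the file headers, the authors deposited raw read counts, normalized counts (a signal: counts divided by one size factor per library) and FPKM (counts per gene length and library total; totals were recovered from them). Per the file headers, the authors made a log2 fold change, a p-value and an adjusted p-value for each gene by comparing the 2 groups. The table lists only genes with an unadjusted p under 0.05. Inverting the Benjamini-Hochberg formula gave 12649 adjusted genes, which matched the deposited adjusted p of 3912 of 3912 genes (relative tolerance 1e-06); 213 genes listed at 1 were taken as not adjusted.

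Raw counts were tested with edgeR's quasi-likelihood test (version 4.0.16) with the authors' size factors and Benjamini-Hochberg adjustment over 12649 genes. Unlisted genes entered as not called, which can make the adjusted p too large. The 213 genes taken as not adjusted were ranked as well without being among the 12649, which can make it too small. The adjusted p is therefore not a strict bound. Dispersions were estimated from the listed genes alone, which had been selected on this contrast. What this did to the p-values was not tested. SE is the log2 difference divided by the root of the F statistic. DESeq2 (1.42.0), limma (3.58.1; log2 of normalized counts plus 1), 2 other scalings, a filter at a mean of 50, adjustment over the listed genes and leaving out each library were alternatives. The 24H and 6D sets were compared with limma, 30 and 180 min with edgeR on library totals. The scripts were tested on simulated data with 200 changed genes. At a 1.5-fold change 18% of these were recovered for 30 min against control, 7% for 24H minus 6D and 65% for 30 against 180 min. At a 2-fold change the shares were 85.5%, 59.5% and 92.5%. A gene that did not pass may therefore still differ. Tables were handled in pandas 2.3.3, figures drawn in matplotlib 3.10.9.

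The members and gene lists were chosen with earlier results of these data known. Genes to name were the 12 largest differences per direction, genes whose groups do not overlap (at most 10 per direction), the 4 smallest p-values in each list (symbol, mean of at least 50 normalized counts, adjusted p under 0.05) and 15 preset genes including FKBP5, calpains and MSTN, of which 4 were listed. Since 12 genes passed, members of lists were named by the same rule with the authors' call. Further genes, those of the 30 against 180 min contrast included, were named for their role. Both were chosen after their values were seen. Some of the further genes, such as SOCS3, CPT1C and CD68, had a mean under 50 normalized counts. Genes caught by a shared name start but not belonging (such as RPS6KA3) were taken off lists after the values were seen. No label says that each library is a separate goat, so p-values measure the spread among these libraries. Depth limits the counting error of low genes. Sequences are not printed, and no genome was used.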

Additional observations from a re-analysis of the deposited data

Results flagged for a closer look

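Outlying libraries were sought in 352 groups of 9 libraries, a pair for each named gene, for the share of listed counts and for 8 summed lists. In 16 groups the gap of a library to its neighbour, over the group's range, passed Dixon's 95% critical value. Chance passes that value in about 1 of 20 groups, and 16 of 352 is near that share. The flags as a set are thus no more than chance can give. Values of genes are normalized counts and were compared on the log2 scale. Control library 7 had 7 of the 16. Its share of counts in listed genes was 69.4, against 55.6 in the next library (percent). Its summed glucocorticoid response, a sum weighted to abundant members, was 5940.3, against 2361 in the next library (CPM). In control library 7 PDK4 had 50745, against 17188 in the next library, RPS29 30389, against 16895 in the next library, PIK3R1 374, against 684 in the next library, AKT2 646, against 1066 in the next library and TBC1D4 331, against 544 in the next library.

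Control library 8 had 3: PRKAA1 at 330.2, against 167 in the next library, USP13 at 1277, against 396 in the next library and MDK at 9.35, against 36.3 in the next library. In the 30 min group, LIPG in library 26 had 95.2, against 277 in the next library, PER2 in library 24 78.0, against 140.2 in the next library, CST6 in library 23 263, against 683 in the next library and VGLL2 in library 27 861, against 1519 in the next library. In 30 min library 22 AKT2 had 1054, against 1488 in the next library and COX1 64797, against 20606 in the next library. In these last 6 genes the stated value was the lowest of the 30 min group, except for COX1, where it was the highest.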

How the results depend on the processing

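The tested counts rest on a threshold near which many genes lie. Beside 8 higher and 4 lower genes, DESeq2 gave 665 and 662, limma 11 and 10, a mean of at least 50 normalized counts 3 and 2, and adjustment over the listed genes alone 1670 and 1730; library totals and TMM stayed within 1.5 times. Leaving out single libraries gave 2 to 1177 higher and 1 to 993 lower genes, the most without control library 8. Without control libraries 7 and 9 edgeR gave 2 and 1. DESeq2 gave 162 and 130 without control library 7, 189 and 203 without control library 9, and 46 and 26 without both, alternatives chosen after seeing the data. The cause was not tested. Of the 167 named genes 0 changed sign under any alternative, and of 1650 list medians 20 did: 1 for splicing factors, 1 for cytokines, 4 for the muscle fibre markers and 14 for the macrophage markers.

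The 30 min and control libraries share no numbers, so no replicate block applies to their comparison. Numbers are shared between the 24H and 6D sets. Of 18 pairs of same-numbered libraries 15 had deviations correlated above 0.1 (range -0.055 to 0.82, median 0.47), and 10 correlated best with their own number, a hint of pairing from the data. Because 3 pairs were not above 0.1, the fit without the block stayed the one reported. That fit treats the sets as independent, so its SE and p-values do not account for goats shared between them. With the replicate block the difference between sets passed in 0 genes, 10 at an unadjusted p under 0.05 against 2 without it. Of the other comparison, 30 against 180 min, 31 to 34 genes passed under the alternatives run. Genes with few counts are limited by counting error.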
